A study of Danio rerio with 9 samples.

Results

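The matrix metalloproteinases and their Timp inhibitors were described in ventricle RNA-seq of adult zebrafish, in 8 genes out of 16575 in the count table. The members were chosen by name: *mmp2*, *mmp9*, *mmp13a*, *mmp14a*, *mmp14b*, *mmp15b*, *timp2a*, *timp2b*, *timp3* and *timp4.1*. Of these 10 symbols, 7 led to a row. The name table writes both copies of *mmp14*, *mmp15* and *timp2* without their final letter, so each copy is given by its Ensembl identifier, and 1 of the 2 *mmp15* rows is not *mmp15b*. *mmp13a* has no row in the count table, *timp3* and *timp4.1* have no entry in the name table, and these 3 are not analysed here under those names. Whether a row named *timp4*, read below among other genes, is *timp4.1* was not determined.

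The libraries came from fresh ventricles of fish 5 months of age, 5 from control fish labelled *vegfc*(+/+):*vegfd*(+/+) and 4 from mutant fish labelled *vegfc*(hy-/-);*vegfd*(-/-). Mutants are homozygous for a hypomorphic *vegfc* allele (hu5055), which leaves some function, and for a *vegfd* mutation (uq9bh). The paper describes the mutant hearts of this data set as being without injury, and does not describe the controls as cryoinjured. The question was which pathways accompany cardiac enlargement when the 2 lymphatic growth factors are reduced. The series is described as 2 lines of fish. Whether controls were siblings of mutants, and how many ventricles went into a library, is not given in the sources used here. How much of the spread between libraries is between fish is thus not known.

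Matrix metalloproteinases are zinc-dependent proteases that cut proteins of the extracellular matrix and of the cell surface, and are made as inactive proenzymes. Some are secreted (the gelatinases Mmp2 and Mmp9 and the collagenase Mmp13), and others stay in the plasma membrane (the membrane-type enzymes Mmp14 and Mmp15). Timps bind the active site of the proteases. In mammals, TIMP2 also bridges pro-MMP2 to MMP14 at the cell surface, where pro-MMP2 is activated, so these 3 proteins act as 1 system. In the heart, Mmps and Timps are known for turnover of the interstitial matrix and for remodelling after injury.

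Library totals ran from 23302636 to 33496006 counts, the lowest in control replicate 2, and the ranges of the genotypes overlapped. The targeted gene *vegfd* was lower in every mutant library, at 0.127 to 0.648 CPM (counts scaled to library size by TMM) against 1.55 to 4.76 CPM in controls (edgeR adjusted p-value 0.0195). That value rose to 0.0562 without mutant replicate 6 and 0.0611 without mutant replicate 7. The *vegfc* allele is hypomorphic, so its mRNA, at 1.1 to 5.53 CPM in controls and 2.07 to 6.20 CPM in mutants, does not test the labels. Cardiac muscle was checked on cardiomyocyte markers, of which *myh7* stood at 34400 to 56000 CPM and *myl7* at 19200 to 27500 CPM across the 9 libraries. No atrial marker was read, so freedom from atrial tissue was not tested.

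By edgeR's quasi-likelihood test, with genes called where the adjusted p-value was below 0.05, 1 of the 8 genes was called higher in mutants and 0 lower, against 2.13% and 1.21% of all genes, or 3.34% in either direction. Before adjustment, 2 of the 8 were under 0.05, one in each direction, as were 20.9% of all genes. The median log2 fold change of the 8 genes was 0.02, against -0.01 for all genes, with 4 above and 4 below 0. No gene was called lower under edgeR's likelihood ratio test, DESeq2 or limma-voom either. The called gene was an *mmp14* copy, and the largest fitted change belonged to *mmp9*, whose value was set by 1 control library.

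**Figure D1:**
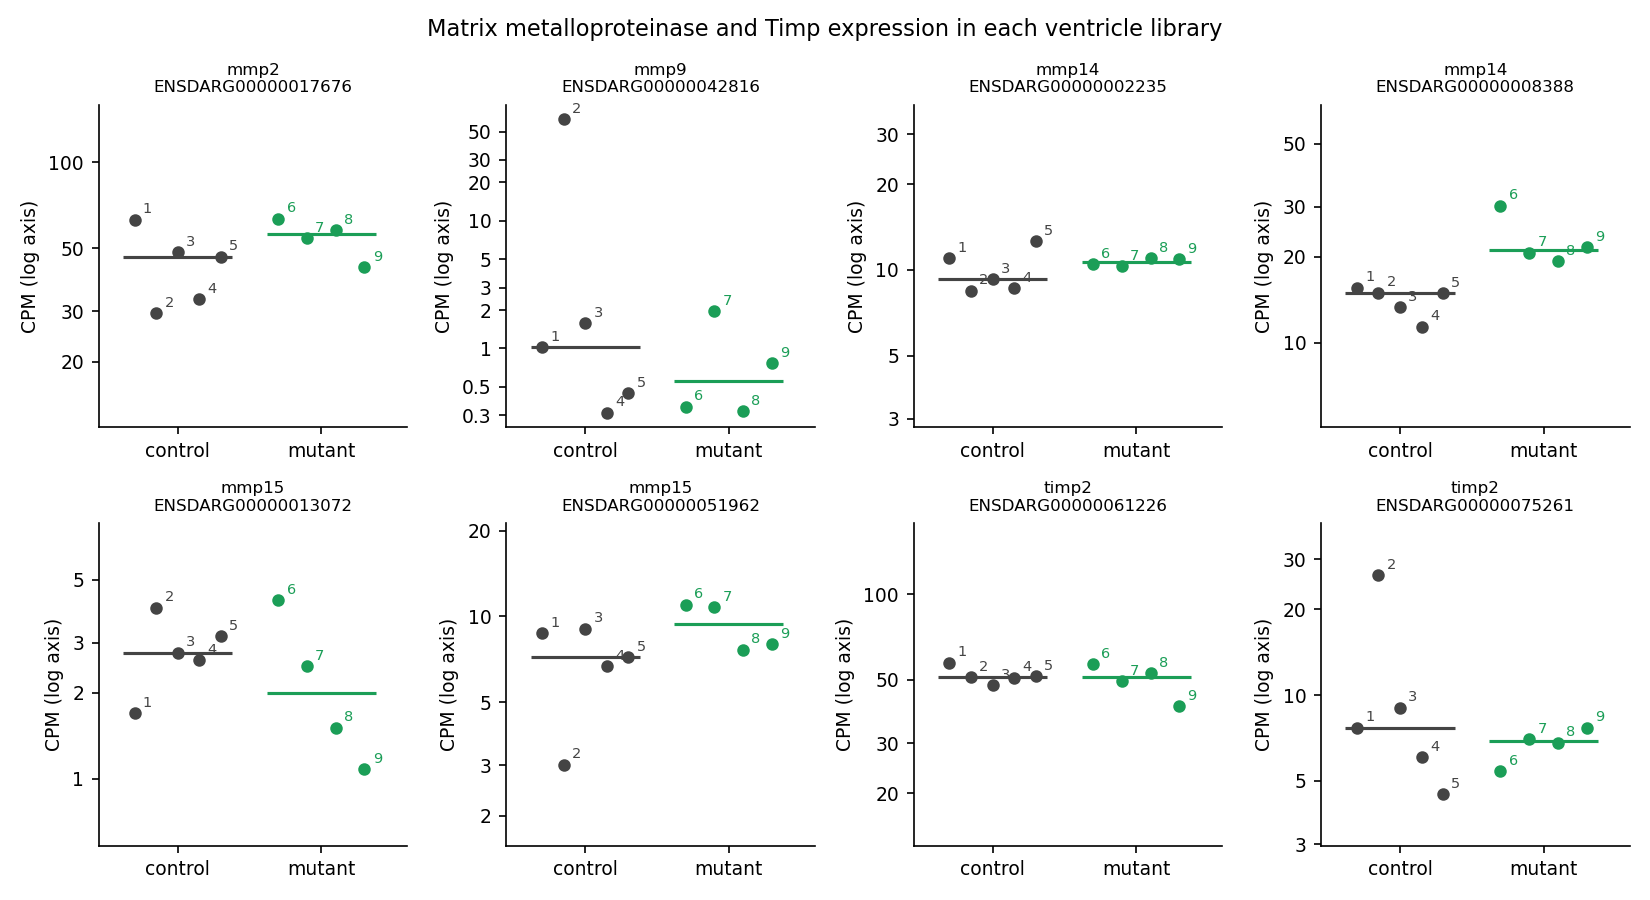
TMM-scaled CPM of the 8 genes in each library, on log axes that differ between panels; points are libraries, numbered by replicate, and bars are medians. Only *mmp14* ENSDARG00000008388 has no overlap between genotypes, and control replicate 2 stands apart for *mmp9* at 62.3 CPM.

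The membrane-type protease gene *mmp14* has 2 copies in the table, of which 1 was called. The copy ENSDARG00000008388 was at 15.6, 15.0, 13.3, 11.4 and 14.9 CPM in control libraries 1 to 5 and at 30.3, 20.7, 19.3 and 21.7 CPM in mutant libraries 6 to 9. Every mutant library thus lay above every control library, with mutant replicate 6 far above the other mutants. Such separation was seen upwards for 6.07% and downwards for 4.46% of all genes. The mean level was 14.0 ± 1.73 CPM in controls (SD, n = 5) and 23 ± 4.98 CPM in mutants (SD, n = 4), which is 1.64-fold higher. On the log2 scale the gene rose by 0.71 ± 0.16 (SE, edgeR adjusted p-value 0.0461). The call was near the threshold. With any 1 of the 9 libraries left out, the adjusted p-value was 0.0575 to 0.104 and the log2 fold change 0.55 (without mutant replicate 6) to 0.79.

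The other *mmp14* copy, ENSDARG00000002235, was at 11, 8.46, 9.28, 8.62 and 12.6 CPM in controls. In mutants it was at 10.5, 10.3, 11 and 10.9 CPM, within the range of controls. On the log2 scale the difference was 0.10 ± 0.15 (SE), not distinguishable from 0 (edgeR adjusted p-value 0.778). The mutant libraries were close together, with a coefficient of variation of 3.08%, against 17.7% in controls.

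A ratio of the 2 copies within each library removes the scaling between libraries. It uses the same counts as the edgeR tests of the copies, so it is not an independent result. The log2 ratio of ENSDARG00000002235 over ENSDARG00000008388 was -0.51, -0.82, -0.52, -0.40 and -0.25 in controls. In mutants it was -1.53, -1, -0.81 and -0.99. Mutants lay lower, but control replicate 2 and mutant replicate 8 met. The mean was -0.50 ± 0.21 (SD, n = 5) in controls and -1.08 ± 0.31 (SD, n = 4) in mutants, a difference of -0.58 (two-sided exact permutation p-value 0.0238, or 0.0476 adjusted over the *mmp14* and *timp2* pairs). With the *mmp15* pair, added after the data were seen, the value adjusted over 3 pairs was 0.0714, which missed the threshold. The smallest value that the permutations can give with 9 libraries is 0.00794. As a difference of medians it was -0.49, with an exact permutation p-value of 0.0635, and it lay between -0.68 and -0.43 over the 9 sets of 8 libraries. It missed the threshold, with exact permutation p-values of 0.0571 or 0.0714, without control replicate 1, 3, 4 or 5 or mutant replicate 6. Without a control library the two-sided permutations can give no value below 0.0286, seen without control replicate 2. The next value they can give is 0.0571.

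**Figure D2:**
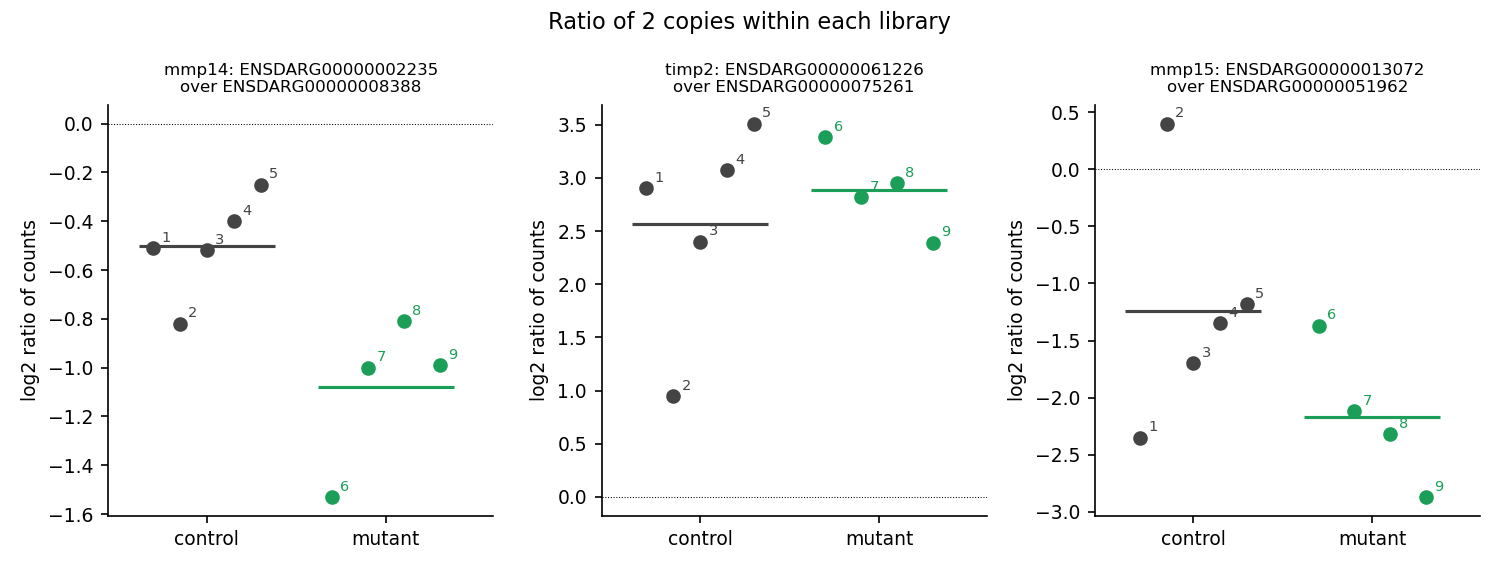
Log2 ratio of counts (plus 0.5) of the 2 copies of *mmp14*, *timp2* and *mmp15* within each library; points are libraries numbered by replicate and bars are group means. The *mmp14* ratio is lower in mutants (mean -1.08 against -0.50), and control replicate 2 stands apart from the other controls for *timp2*, at 0.95, and for *mmp15*, at 0.40.

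The bulk ventricle holds several cell types, and fewer cells of a type cannot be told apart from less RNA per cell. The summed level of the 7 cardiomyocyte marker rows was 108730 to 125268 CPM in controls and 89724 to 99705 CPM in mutants, without overlap. None of these 7 was called, though 5 were under 0.05 before adjustment (20.9% of all genes were). Of the 5, *myl7*, *cmlc1*, *tnni1* and *tnnt2* ENSDARG00000020610 were lower in mutants, and *tnnt2* ENSDARG00000100694, at most 2.32 CPM in any library, was higher. The 13 fibroblast and epicardium rows summed to 397.5 to 742.8 CPM in controls and 400.1 to 578.8 CPM in mutants. The 8 endothelial rows summed to 684.9 to 928.7 CPM and 705.9 to 930.6 CPM, and the 13 macrophage rows to 86.8 to 155.7 CPM and 77.8 to 288.1 CPM. Of the 13 macrophage rows, 12 had a log2 fold change above 0 and 1 below, with a median of 0.60. None of the 13 was called, against 3.34% of all genes. The 9 smooth muscle and bulbus rows summed to 172.9 to 368.4 CPM in controls and 166.9 to 311.8 CPM in mutants, with a median log2 fold change of -0.88. The part of these cell types in the *mmp14* difference was not tested.

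The gelatinase gene *mmp2* (ENSDARG00000017676), whose product is cut to its active form with the help of Mmp14, was at 63.0, 29.5, 48.3, 33.2 and 46.7 CPM in controls. Mutant libraries held 63.5, 54.1, 58.0 and 42.8 CPM. The genotypes overlapped widely, with the lowest values in control replicates 2 and 4. Mutants differed by 0.31 ± 0.22 on the log2 scale (SE, edgeR adjusted p-value 0.466), or by 0.19 without control replicate 2.

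The inhibitor gene *timp2* (ENSDARG00000061226) was the most even of the 8 across controls, with a coefficient of variation of 6.79%. Its level was 57.5, 51.1, 47.9, 51 and 51.6 CPM in controls and 56.8, 49.6, 52.7 and 40.4 CPM in mutants. Only mutant replicate 9 fell outside the control range. The difference was -0.06 ± 0.13 on the log2 scale (SE, edgeR adjusted p-value 0.846). That SE was the smallest of the 8 genes.

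The other *timp2* copy, ENSDARG00000075261, was at 7.69, 26.4, 9.05, 6.07 and 4.50 CPM in controls. It was at 5.43, 7, 6.81 and 7.69 CPM in mutants. Control replicate 2 was 3.84 times the median of the other controls, and all other libraries shared 1 range. The log2 fold change of -0.67 ± 0.46 (SE) had an edgeR adjusted p-value of 0.445, and was -0.02 without control replicate 2. The ratio of the 2 *timp2* copies, ENSDARG00000061226 over ENSDARG00000075261, had a log2 mean of 2.57 ± 0.99 (SD, n = 5) in controls and 2.89 ± 0.41 (SD, n = 4) in mutants (exact permutation p-value 0.683, both raw and adjusted). The sign of its difference, 0.32, turned to -0.08 without control replicate 2.

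Mmp15, another membrane-type enzyme, is encoded by ENSDARG00000013072 and ENSDARG00000051962. The first was at 1.70 to 3.98 CPM in controls (median 2.77) and 1.08 to 4.24 CPM in mutants (median 2.00), with mutant replicate 6 highest and mutant replicate 9 lowest of all 9 libraries. Its log2 fold change was -0.29 ± 0.40 (SE), with an edgeR adjusted p-value of 0.737. That change was -0.75 without mutant replicate 6, -0.14 without control replicate 2, -0.13 without mutant replicate 8 and -0.05 without mutant replicate 9. ENSDARG00000051962 was at 8.71, 3.02, 9.05, 6.67 and 7.20 CPM in controls and 11, 10.8, 7.64 and 8.01 CPM in mutants. Control replicate 2 was far below the rest. The difference was 0.43 ± 0.29 on the log2 scale (SE, edgeR adjusted p-value 0.426), and 0.24 without control replicate 2. Neither copy was distinguishable between genotypes. The log2 ratio of the first over the second had a mean of -1.24 ± 1.02 (SD, n = 5) in controls and -2.17 ± 0.62 (SD, n = 4) in mutants, a difference of -0.93 (exact permutation p-value 0.167, or 0.25 adjusted over 3 pairs).

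The gelatinase gene *mmp9* (ENSDARG00000042816), which is raised in leukocytes and at wounds in zebrafish, was low in all libraries but one. Control libraries 1 to 5 held 33, 1362, 56, 10 and 15 counts, and mutant libraries 6 to 9 held 10, 62, 9 and 24. In CPM these are 1.02, 62.3, 1.58, 0.314 and 0.444 in controls and 0.350, 1.95, 0.324 and 0.763 in mutants. Control replicate 2 was 85.1 times the median of the other controls, and the other 8 libraries shared 1 range. Its log2 excess over that median, 5.67 with 0.5 CPM added to both, ranked 5 among all 16575 genes.

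The fitted log2 fold change of *mmp9* was -3.92 ± 1.65 (SE), with an unadjusted p-value of 0.0377 and an edgeR adjusted p-value of 0.210. Without control replicate 2 the log2 fold change was 0.01, with an edgeR adjusted p-value of 0.994. Controls then stood at 0.840 ± 0.581 CPM (SD, n = 4) and mutants at 0.846 ± 0.761 CPM (SD, n = 4). Thus no difference in *mmp9* between genotypes was seen outside that library.

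**Figure D3:**
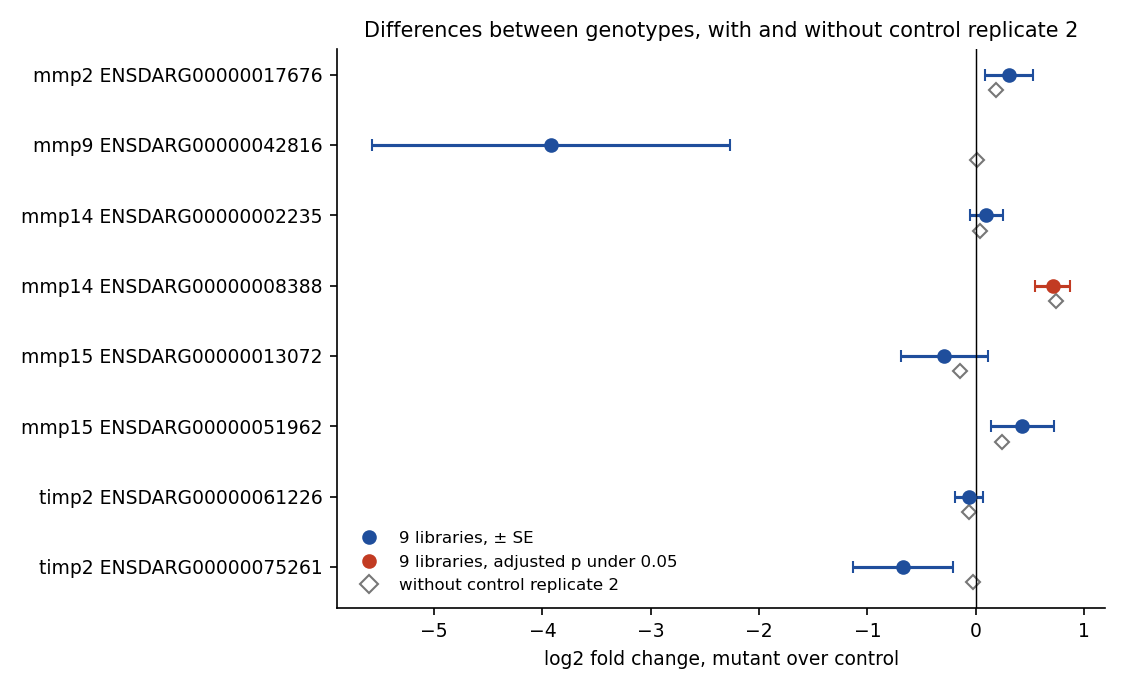
Log2 fold change of each of the 8 genes, mutant over control; circles are the fit to 9 libraries with SE bars, and diamonds the fit without control replicate 2. The *mmp9* value moves from -3.92 to 0.01 and the *timp2* ENSDARG00000075261 value from -0.67 to -0.02, while *mmp14* ENSDARG00000008388 stays at 0.71 and 0.74.

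Control replicate 2 was above all other controls in 3 of the 8 genes (37.5%), against 24.9% of all genes. It was below all other controls for *mmp2*, *mmp14* ENSDARG00000002235 and *mmp15* ENSDARG00000051962. The median log2 excess over the median of the other controls was 0.04 for the 8 genes. Of the other Mmp and Timp genes, 0 of 7 rows were above all other controls in this library (median excess -0.35). Since *mmp9* and *timp2* ENSDARG00000075261 shared their high library, a list of genes, some of them known to induce Mmps, was read in the same library. This list of cytokines, of AP-1, Ets and NF-kB factors and of NF-kB inhibitors gave 23 rows. In 16 of them (69.6%) control replicate 2 was above all other controls, against 24.9% of all genes. In 13 of the 23 (56.5%) it was above all 8 other libraries, against 17.4% of all genes. The ADAM and ADAMTS proteases also stood high there, with 12 of 24 rows (50%) above all other controls and 9 (37.5%) above all 8 other libraries. The cytokine gene *il11a* was at 30.7 CPM there and at 0 to 0.472 CPM in the other controls. The Tnf family gene *tnfb* was at 11.5 CPM, against 0.444 to 1.53 CPM. *nfkb2*, an NF-kB subunit gene, was at 139 CPM against 15.7 to 33.6 CPM, and *nfkbiaa*, which encodes an inhibitor of NF-kB, at 90.8 CPM against 6.61 to 17.6 CPM. The AP-1 gene *junb* ENSDARG00000074378 was at 131 CPM against 3.14 to 13.9 CPM. The choice of these 5 examples followed from their values.

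The list did not move as a block in that library. *fosb* had 0 CPM in control replicate 2, against 0.178 to 5.41 CPM in the other controls, and *atf3* was at 12.4 CPM within their 4.18 to 119 CPM. Of the neutrophil markers, 5 had rows, and their summed level in control replicate 2 was 219.7 CPM, against 118.6 to 162.7 CPM in the other controls. In 3 of the 5 (60.0%) it was above all other controls. These were *srgn*, at 208 CPM and most of the sum, *cxcr1*, at 1.37 CPM against 0.0296 to 0.141 CPM, and *csf3r*, at 2.51 CPM against 0.755 to 2.01 CPM. *lyz* and *npsn*, at 0.549 and 7.04 CPM, lay within the range of the other controls. The macrophage markers summed to 118.2 CPM there, within 86.8 to 155.7 CPM. The same library had the lowest total and 684 genes without counts, against 69 to 127 in the other controls and 107 to 320 in mutants. Mutant replicate 6 held the 320, and had the next lowest total, 27320575 counts. The part of cytokines, leukocytes or depth in the *mmp9* value was not tested.

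**Figure D4:**
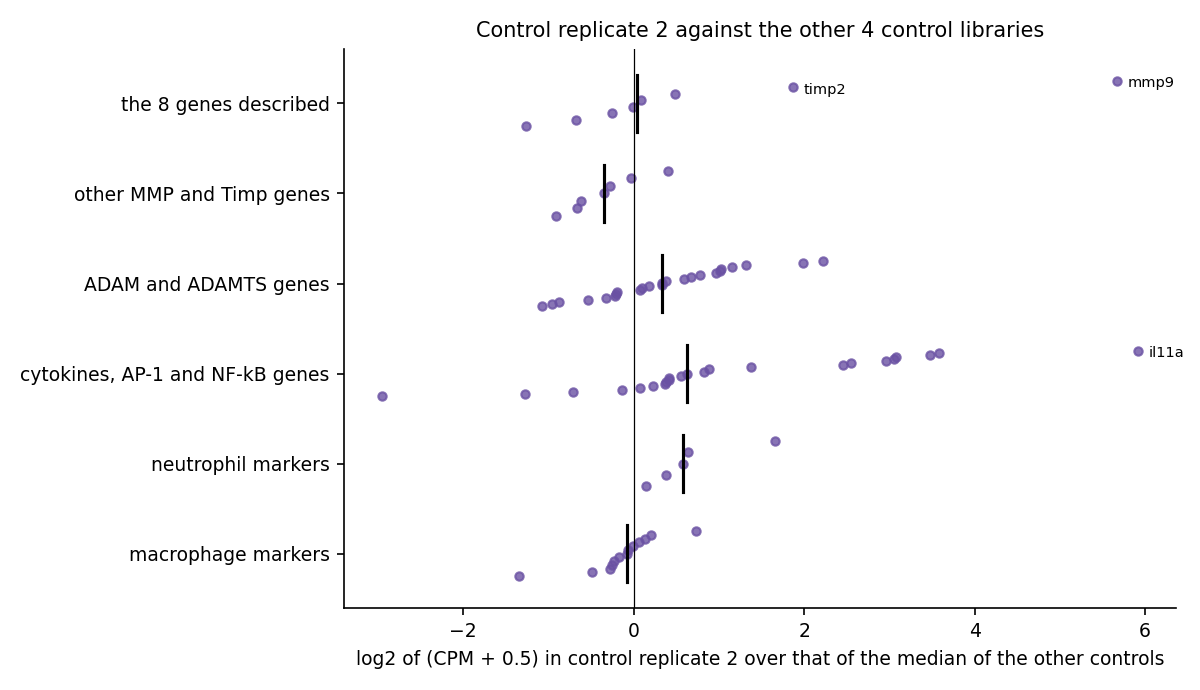
Log2 of CPM plus 0.5 in control replicate 2 over that of the median of the other 4 controls, per gene; rows of points are gene lists and black bars their medians. *mmp9* lies at 5.67, next to the cytokine gene *il11a*, while the median of the cytokine, AP-1 and NF-kB list is 0.63 and that of the macrophage markers -0.08.

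Other genes of the 2 families gave 7 rows, none of which was called by edgeR's quasi-likelihood test. Before adjustment 1 was under 0.05, as were 20.9% of all genes. The median log2 fold change of the 7 rows was 0.44, with 6 above and 1 below 0. The *timp4* copies ENSDARG00000100795 and ENSDARG00000102617 had log2 fold changes of 0.44 and 0.83 (edgeR adjusted p-values 0.435 and 0.582). The first was at 2.90 to 4.23 CPM in controls and 3.14 to 8.09 CPM in mutants, where mutant replicate 6 alone stood above 4.26 CPM. The second was at 0 to 1.61 CPM in controls and 0.974 to 2.49 CPM in mutants.

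The membrane-anchored protease gene *mmp17* (ENSDARG00000078915) had the lowest unadjusted p-value of these 7 rows, 0.0139. It was at 1.64, 0.320, 0.453, 0.503 and 0.592 CPM in controls and at 1.51, 3.58, 1.62 and 1.46 CPM in mutants. Control replicate 1 lay among the mutants, and the log2 fold change of 1.53 had an edgeR adjusted p-value of 0.131. *mmp23b* was at 49.3 to 96.3 CPM in controls and 77.8 to 109 CPM in mutants (log2 fold change 0.38, edgeR adjusted p-value 0.342). *mmp21*, *mmp11b* and *mmp25b* stayed under 2 CPM in every library.

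Among regulators of these proteases, 20 rows were found for 33 symbols of the plasminogen system, proprotein convertases, thrombospondins and membrane partners. Of these rows 1 was called lower and 0 higher, against 1.21% and 2.13% of all genes, with a median log2 fold change of -0.04. The called gene was *spock3*, which encodes testican 3, a proteoglycan whose human form inhibits membrane-type MMPs. It fell from 1010 to 1620 CPM in controls to 690 to 786 CPM in mutants (log2 fold change -0.84, edgeR adjusted p-value 0.0177), and the value was 0.0525 at most with a library left out. *spock3* lies on the chromosome of *vegfc*, so linkage to the mutated locus and the effect of the mutation cannot be told apart. *reck*, a membrane-anchored MMP inhibitor named here after its values were seen, was at 15.0 to 28.6 CPM in controls and 30.3 to 37.1 CPM in mutants. The groups did not overlap, as seen upwards for 6.07% of all genes, but the gene was not called (log2 fold change 0.53, edgeR adjusted p-value 0.142). Both furin genes, whose product cuts the propeptide of membrane-type MMPs in mammals, had rows, ENSDARG00000062909 and ENSDARG00000070971, with log2 fold changes of -0.09 and 0.38 and edgeR adjusted p-values of 0.840 and 0.294.

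The related ADAM and ADAMTS proteases gave 24 rows, with 1 called higher and 0 lower, against 2.13% and 1.21% of all genes. The median log2 fold change of the 24 rows was 0.00. *adamts5*, an aggrecan-cutting protease, was at 0.800 to 1.57 CPM in controls and 1.86 to 7.44 CPM in mutants (log2 fold change 1.91, edgeR adjusted p-value 0.0331). It was called in 2 of the 9 fits with a library left out, with 0.0903 without mutant replicate 7, and lies on the chromosome of *vegfc*. In control replicate 2, *adam8a* was at 11 CPM, against 1.35 to 3.37 CPM in the other controls. *adam12* ENSDARG00000079068 was at 15.8 CPM there, against 2.97 to 4.21 CPM. The other *adam12* row, ENSDARG00000116062, was at 1.6 CPM there, within 1.1 to 2.01 CPM. The log2 excesses of *adam8a* and *adam12* ENSDARG00000079068 over the median of the other controls, 2.22 and 1.99, were well below the 5.67 of *mmp9*. The 2 genes were picked for their values, and the median excess of the 24 rows was 0.33.

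Genes for matrix proteins, the substrates of these enzymes, gave 35 rows, with 2 called higher and 0 lower, against 2.13% and 1.21% of all genes. The median log2 fold change of the 35 rows was 0.10. The laminin gene *lamb1* ENSDARG00000045524 was at 27.2 to 40.7 CPM in controls and 51.4 to 69.5 CPM in mutants (log2 fold change 0.80, edgeR adjusted p-value 0.0205). *bgn*, which encodes the proteoglycan biglycan, was at 4.74 to 7.97 CPM and 10.8 to 16.1 CPM (log2 fold change 0.96, edgeR adjusted p-value 0.0339). With a library left out, *lamb1* ENSDARG00000045524 was called in 7 and *bgn* in 3 of 9 fits. Their values went up to 0.0586 without mutant replicate 9 and 0.0924 without mutant replicate 7. The collagen genes *col1a1a* and *col1a2*, with log2 fold changes of 0.10 each, were not called (edgeR adjusted p-values 0.897 and 0.867). Nor was *col1a1* ENSDARG00000035809 (log2 fold change -0.19, edgeR adjusted p-value 0.770).

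Of the 23 rows of cytokines, AP-1 and NF-kB genes, 1 was called higher and 0 lower (2.13% and 1.21% of all genes). Their median log2 fold change was -0.03. Before adjustment 9 were under 0.05, in both directions, against 20.9% of all genes. Without control replicate 2 the log2 fold change of *il11a* went from -6.00 to -0.41 and of *junb* ENSDARG00000074378 from -1.21 to 0.61. That of *fosl1* went from 0.32 to 1.91, of *fosl2* from 1.36 to 2.63 and of *fosb* from 3.04 to 2.74. None of these was called in either fit. The AP-1 gene *jund* was at 6.10 to 61.3 CPM in controls and 113 to 301 CPM in mutants (log2 fold change 2.89, edgeR adjusted p-value 0.0238). This call held in 4 of 9 fits with a library left out and reached 0.0612 without mutant replicate 6. Among cell type markers, *tbx18* of the epicardium was called lower, at 6.36 to 17.5 CPM in controls and 1.73 to 5.65 CPM in mutants. Its edgeR adjusted p-value was 0.0494, and it was called in 1 of 9 fits with a library left out. No other of the 13 fibroblast and epicardium rows was called, while 1.21% of all genes were called lower. These 13 rows went both ways, 6 up and 6 down in mutants, so *tbx18* does not stand for the list. Of the 9 smooth muscle and bulbus rows, 1 was called higher and 1 lower, against 2.13% and 1.21% of all genes. *tagln* ENSDARG00000045408 was higher (log2 fold change 1.41, edgeR adjusted p-value 0.0407, called in 0 of 9). *myh11* ENSDARG00000009782 was lower (-1.38, edgeR adjusted p-value 0.0374, called in 3 of 9). The other copies, *tagln* ENSDARG00000033466 (0.38, edgeR adjusted p-value 0.246) and *myh11* ENSDARG00000100972 (-1.02, edgeR adjusted p-value 0.204), were not called. These 9 rows went 3 up and 6 down, so *tagln* does not stand for the list.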

How the data were processed

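RNA-seq counts came from 9 libraries, each in its own column, with no columns merged, grouped by their titles. The authors trimmed paired reads with Skewer, aligned them to GRCz11 with STAR 2.5.2a, and counted them per gene on the annotated strand with featureCounts 1.5.0 above a mapping quality limit. The deposited counts were raw, and each gene had a mean of at least 10, so genes under that limit are not analysed here. Reads that map equally well to near-identical copies are lost under such a limit, and the division between copies is uncertain.

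Symbols were found for 15812 identifiers (95.4%), ignoring case, with a final a or b dropped where the full symbol was absent. Counts were scaled by TMM and tested with the quasi-likelihood F test of edgeR 4.0.16 (legacy form, R 4.3.3), two-sided, with Benjamini-Hochberg adjustment over all 16575 genes. Each SE was derived from the fold change and its F statistic. The planned a over b ratios were taken in identifier order, since the copies carry no letters, with 0.5 counts added. The planned ratio of *mmp9* over *mmp13a* was not run, and the *mmp15* ratio was added after the data were seen. Chromosomes came by symbol from GRCz12tu, whose coordinates are not used. Alternatives were edgeR's likelihood ratio test and newer quasi-likelihood form, DESeq2 1.42.0, limma-voom 3.58.1, RLE scaling, library size alone, a mean of at least 50 counts, and leaving out each library. The procedure was tested on simulated data. It recovered 25% of 100 genes changed 2-fold and 86% of 100 genes changed 4-fold, with 4 false calls among unchanged genes. Changes of 2-fold were thus missed more often than called. The changed genes were drawn from those with a mean of at least 50 counts, and no library was simulated to stand apart. Recovery at lower counts, or with a library like control replicate 2, was thus not tested. A gene that was not called here may still differ by 2-fold, by less or by more, since some 4-fold changes were also missed. The members and lists were chosen with earlier results of these data known. Named are all members, *vegfd*, *vegfc* and, of each list, up to 3 called genes of smallest p-value. Other genes named from the lists were picked with their values in view.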

Additional observations from a re-analysis of the deposited data

Results flagged for a closer look

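Dixon's criterion for a lone extreme library was applied to each genotype for 16 genes, 32 groups in all. It was met in 4, and about 1.6 would be met by chance if the groups were independent and normally distributed. Low counts need not be so distributed, and the groups share libraries, so the 2 numbers are not a test. In control replicate 2 it was met by *mmp9*, at 62.3 CPM, and by *timp2* ENSDARG00000075261, at 26.4 CPM. *mmp17* met it in control replicate 1, at 1.64 CPM, and in mutant replicate 7, at 3.58 CPM.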

How the results depend on the processing

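No paired analysis was possible because the genotypes share no replicate numbers. Over all genes, 353 were higher and 200 lower. The likelihood ratio test gave 817 and 540, DESeq2 929 and 737, and the newer quasi-likelihood form 553 and 304. With a library left out, 136 to 322 were higher and 60 to 170 lower. Of the 8 genes, 1 was higher in 6 of the 7 other settings, 0 with library size alone (*mmp14* ENSDARG00000008388, adjusted p-value 0.0587), and 0 to 0 with a library left out. None was lower in any fit. Over the 8 genes, the sign of the fold change held in all 56 values from the other settings, and in 70 of the 72 from fits to 8 libraries. The exceptions were *mmp9*, which ranged from -4.74 to 0.01 (without control replicate 2), and *timp2* ENSDARG00000061226, from -0.12 to 0.03 (without mutant replicate 9), neither of them called. For *mmp9*, limma-voom with quality weights gave -0.60, and DESeq2 gave no adjusted p-value. Fits to 8 libraries put *vegfd* between -3.23 and -2.49 on the log2 scale. For the copy ratios, adjusting over 3 pairs left the *mmp14* difference at -0.58 but took its p-value to 0.0714. The difference of medians was -0.49 for *mmp14* and -0.01 for *timp2*, and leaving out a library gave -0.68 to -0.43 and -0.08 to 0.56. The cause was not tested. Counts under about 20, as for *mmp9* in 4 libraries, limit what could be seen there.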
